A study of Mus musculus with 8 samples.

Results

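Mouse group 2 innate lymphoid cells (ILC2s) and CD8 T cells were profiled co-cultured or alone, and the responses of both cell types to co-culture were set against each other gene by gene. The quantity of interest was the interaction, that is the log2 change in ILC2s (co-cultured over alone) minus the log2 change in CD8 T cells (co-cultured over alone), fitted over all 8 libraries of the series. It could be fitted for gene symbols present in the count tables of both cell types, which were 16226 of the 19805 symbols in either table. A filter on low counts left 15540 genes. Genes that rose in one cell type and fell in the other, and genes that moved alike in both, are described.

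Lung was the source of the ILC2s and spleen that of the CD8 T cells, both from mice labelled WT (wild type); no strain, age or sex is stated in the labels. There were 4 groups of 2 libraries each: ILC2s labelled alone, ILC2s labelled co-cultured, CD8 T cells labelled alone and CD8 T cells labelled co-cultured. Co-cultures held CD8 T cells and ILC2s at 5:1 for 3 days, and the groups labelled alone (treatment "Untreated") held 1 cell type. No culture time is given for the groups labelled alone, and the part of time in culture in the responses was not tested. All groups were sorted by flow cytometry before RNA extraction with Trizol and SMART-Seq v4 library construction. The question of the series is whether antigen presentation by ILC2s activates CD8 T cells directly. The labels mention no added antigen and do not tell how the 2 libraries of a group relate (same culture, same animal or not), so p-values measure only the spread between these libraries, which may be technical.

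ILC2s are tissue-resident lymphocytes without rearranged antigen receptors. They depend on the transcription factors GATA3 and RORA, respond to the alarmins IL-33, IL-25 and TSLP, and make IL-5 and IL-13, the cytokines of eosinophilia and mucus production. CD8 T cells recognise peptide on MHC class I through a T cell receptor and kill target cells with perforin and granzymes, and after activation they make interferon gamma and pass through a phase of rapid growth. Both share the common gamma chain cytokine receptors and much of the signalling downstream of them, so a culture shared by both can change a gene alike or in opposite directions.

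Library totals ran from 48072595 to 67076905 counts. An ILC2 identity list (11 of 12 genes in the ILC2 table and 8 in the CD8 table) summed to 4144 to 4167 CPM (counts scaled to the library total) in ILC2s labelled alone, 10824 to 10925 in those labelled co-cultured, and 546 to 592 in all 4 CD8 libraries. Both ILC2 libraries labelled alone also carried markers of other cells. The 10 T cell markers, all of them tested, summed to 1520 to 1627 CPM there against 224 to 260 in the ILC2 libraries labelled co-cultured, and to 5171 to 6513 in the CD8 libraries. Relative to CD8 T cells labelled alone, the level of these markers in ILC2s labelled alone was 12.4% (Cd5) to 44.1% (Cd8a), with a median of 30.6%, and in ILC2s labelled co-cultured the median was 2.35%. Macrophage markers (8 of 20 in the ILC2 table) summed to 2841 to 3351 CPM alone and 97.6 to 129 co-cultured, fibroblast and stroma markers (16 of 20) to 10289 to 10966 and 1016 to 1022, B cell markers (10 of 10) to 2652 to 2706 and 726 to 792, and NK cell markers (8 of 11) to 220 to 243 and 13.6 to 14.6. A lower value in a bulk library can come from fewer cells of a type or from less RNA per cell, which cannot be told apart here. The part of these other cells in the ILC2 responses below was not tested, and every direction is that of the labels.

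The responses were related but far from the same. In ILC2s 70.1% of the genes tested changed in co-culture, 4654 higher (29.9%) and 6232 lower (40.1%), and in CD8 T cells 56% changed, 4375 higher (28.2%) and 4326 lower (27.8%), at an edgeR adjusted p under 0.05. The interaction passed the same threshold for 8313 genes (53.5%), of which 3187 (20.5%) were higher in ILC2s relative to CD8 T cells and 5126 (33%) lower. Of 6746 genes called in both cell types, 75.5% moved the same way: 2224 rose in both (14.3% of all genes tested) and 2867 fell in both (18.4%). The other 1655 (10.6%) moved in opposite directions, 506 rising in ILC2s and falling in CD8 T cells (3.26%) and 1149 falling in ILC2s and rising in CD8 T cells (7.39%). Across genes, which are not independent and share the same libraries, the changes in both cell types had a Pearson's r of 0.26 and a Spearman's rho of 0.34.

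**Figure D1:**
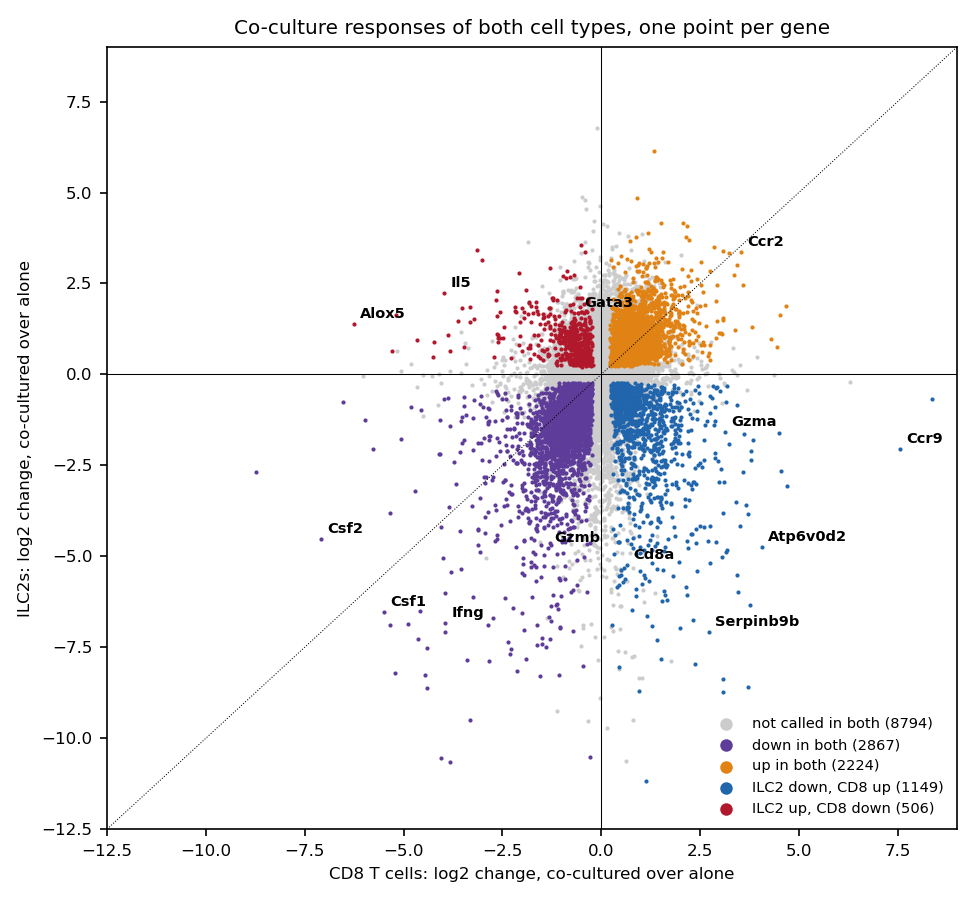
Each point is 1 of 15540 genes, with its log2 change in CD8 T cells on the x axis and in ILC2s on the y axis; colours mark genes called in both cell types by direction, with the number of genes in the legend, and grey marks the rest. The dotted line marks equal changes, and the lower left corner reaches further along the ILC2 axis than along the CD8 axis.

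Requiring at least a 2-fold change in both cell types left 79 genes that rose in ILC2s and fell in CD8 T cells (0.508%), 341 of the reverse kind (2.19%), 447 that rose in both (2.88%) and 887 that fell in both (5.71%). Genes that fell in both mostly fell further in ILC2s, 2151 of 2867, with medians of -1.26 in ILC2s and -0.83 in CD8 T cells. Among them the interaction itself passed for 1463, of which 1300 were lower in ILC2s. Genes that rose in both were closer, with medians of 0.92 and 0.75, and the interaction passed for 914 of 2224.

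The direction of an ILC2 response depended on how the ILC2 libraries were scaled. The main scaling (TMM, which assumes that most genes do not change) put the median of all genes at -0.12 in ILC2s and 0.0024 in CD8 T cells. When the ILC2 libraries were instead scaled to hold 7 ILC2 identity genes level, the ILC2 median moved to -1.72, so that 13318 genes were lower and 297 higher in ILC2s. The interaction then split into 247 genes higher and 12703 lower, against 4137 and 4247 with upper-quartile scaling. Of the 506 genes that rose in ILC2s and fell in CD8 T cells 25 kept that class and 353 fell in both, whereas 1147 of the 1149 genes of the reverse kind and 2857 of the 2867 that fell in both kept theirs. Of the 2224 that rose in both 171 kept their class and 1599 fell in ILC2s while rising in CD8 T cells. Of the 79 genes with 2-fold opposite changes that rose in ILC2s, all 79 kept a positive interaction and 10 kept their class. This scaling lowered all ILC2 changes and interactions by nearly the same amount. Falls in ILC2s and large positive interactions were therefore kept by construction, and their counts are no check of these classes. Which scaling is closer to the cells' RNA content was not tested, and rises in ILC2s below are rises relative to the typical gene. Interaction intervals below are those of the main scaling.

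**Figure D2:**
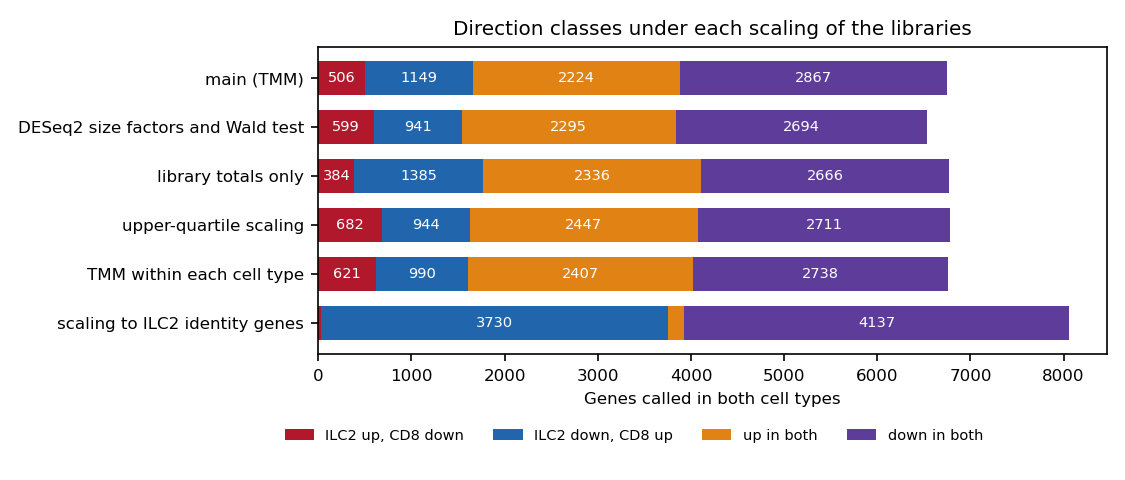
Bars give the number of genes called in both cell types in each of 4 direction classes (colours), for 6 ways of scaling the libraries. Scaling to ILC2 identity genes leaves 25 genes that rise in ILC2s and fall in CD8 T cells and 3730 of the reverse kind, while the other scalings give 384 to 682 and 941 to 1385.

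Il5 ranked first among the genes that rose in ILC2s and fell in CD8 T cells. Il5 (chr11:53720794-53725103, GRCm38.p6, protein-coding), the eosinophil growth factor, had 312 and 343 CPM in ILC2s labelled alone and 1495 and 1492 CPM in those labelled co-cultured. In CD8 T cells it had 10.5 and 9.86 CPM alone and 0.665 and 0.686 CPM co-cultured. The groups did not overlap in either cell type, which the choice of genes with large changes favours. The CD8 level was a small share of the ILC2 level throughout. The log2 change was 2.24 (SE 0.096) in ILC2s and -3.98 (SE 0.14) in CD8 T cells, an interaction of 6.22 (95% interval 5.86 to 6.58, edgeR adjusted p 1.4e-13). Il5 was among the genes that kept a positive ILC2 response, 0.65, under scaling to ILC2 identity genes.

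Alox5 (chr6:116410071-116461178), 5-lipoxygenase, the first enzyme of leukotriene synthesis, had the largest interaction of the 10 leading genes of this kind. Its level was 263 and 242 CPM in ILC2s alone and 639 and 629 CPM co-cultured, against 12.4 and 10.8 CPM in CD8 T cells alone and 0.166 and 0.149 CPM co-cultured, the last from 11 and 10 reads. The log2 changes were 1.38 and -6.25, with an interaction of 7.63 (7.19 to 8.08). Under scaling to ILC2 identity genes the ILC2 change was -0.21, so the interaction and the CD8 fall remained but the ILC2 rise did not.

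Receptors and receptor partners made up 3 more of the 10. Ramp1 and Ramp3 encode receptor activity-modifying proteins, which turn the calcitonin receptor-like receptor into receptors for CGRP and adrenomedullin. Ramp3 (chr11:6658506-6677478) rose from 205 and 222 to 601 and 741 CPM in ILC2s and fell from 41.1 and 45.3 to 9.94 and 10.3 CPM in CD8 T cells. Ramp1 (chr1:91179822-91225196) rose from 7.59 and 7.56 to 25.7 and 32.9 CPM in ILC2s and fell from 13.1 and 13.8 to 4.46 and 4.52 CPM in CD8 T cells. Ccr4 (chr9:114490316-114505476), the receptor for CCL17 and CCL22, rose from 12.4 and 13.8 to 43.8 and 48.5 CPM in ILC2s and fell from 25.2 and 22.4 to 7.56 and 7.08 CPM in CD8 T cells. For Ramp1 and Ccr4 the order of the cell types was exchanged: CD8 T cells were higher in the groups labelled alone and ILC2s in those labelled co-cultured. Interactions were 3.87, 3.66 and 3.64 (edgeR adjusted p 1.1e-11, 3.9e-10 and 9.8e-11).

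The other leading genes of this kind were the circadian repressor Ciart, the peroxiredoxin-like gene Prxl2a, Ccdc184, the G1 kinase gene Cdk6 and the linker histone gene H1f0, with ILC2 changes of 1.09 (H1f0) to 1.51 (Ciart) and CD8 changes of -1.18 (H1f0) to -3.21 (Ciart). The rule that names genes ranks by the smaller of both changes, and the last named, H1f0 at 1.09, was followed by Ccr8 at 1.07. Under scaling to ILC2 identity genes the ILC2 changes of these 5 were -0.09 to -0.50.

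**Figure D3:**
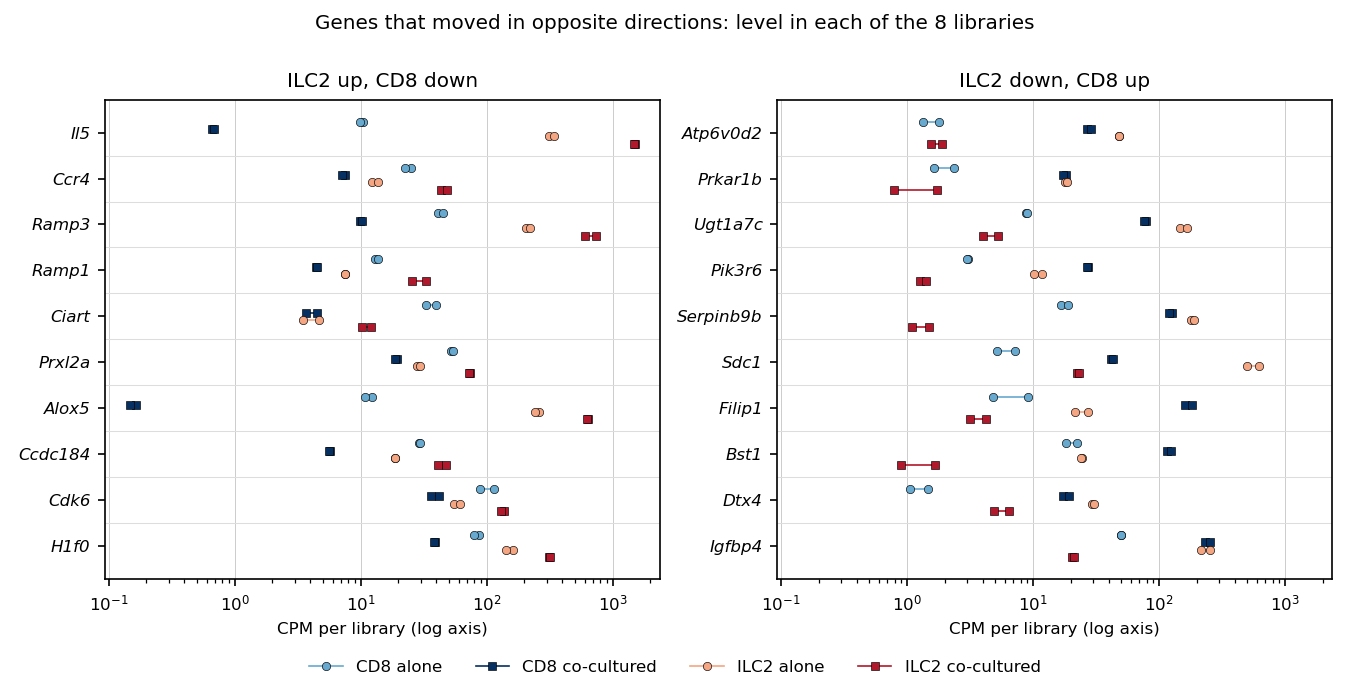
Level of the 10 leading genes of each opposite kind in CPM (log axis), with 1 point per library, lines joining the 2 libraries of a group, circles for groups labelled alone and squares for groups labelled co-cultured. In the left panel the ILC2 squares lie right of the ILC2 circles and the CD8 squares left of the CD8 circles, and in the right panel the reverse holds. The alone and co-cultured libraries of a cell type do not overlap, which the choice of genes with large changes favours.

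Over a list of ILC2 identity and type 2 genes, 14 of 32 tested members rose in ILC2s and fell in CD8 T cells (3.26% of all genes did). Another 11 rose in both (14.3%). The list had a median ILC2 change of 1.38 and a median CD8 change of -0.52. The same medians over all genes were -0.12 and 0.0024. Gata3, the lineage-defining factor, went from 429 and 399 to 1317 and 1237 CPM in ILC2s and from 117 and 119 to 77.6 and 86.3 CPM in CD8 T cells, an interaction of 2.28 (1.99 to 2.56). Il1rl1, which encodes the IL-33 receptor ST2, went from 738 and 856 to 2399 and 2084 CPM in ILC2s, and in CD8 T cells from 1.41 and 1.45 to 0.695 and 0.388 CPM, an interaction of 3.02 (2.42 to 3.61). Pparg, a lipid-sensing nuclear receptor, and Il10, an anti-inflammatory cytokine, had interactions of 5.34 and 4.87. The members that rose in both included Rora (1.39 in ILC2s and 1.58 in CD8 T cells) and Kit, the stem cell factor receptor. Kit went from 36.4 and 50.5 to 384 and 378 CPM in CD8 T cells and from 73.4 and 67.7 to 160 and 133 CPM in ILC2s, so it ended higher in co-cultured CD8 T cells than in any ILC2 library. Under scaling to ILC2 identity genes, which fixes part of this list by construction, the list's ILC2 median was -0.21, and Gata3 and Il1rl1 were at 0.08 and -0.05 in ILC2s.

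Glycolytic and hypoxia-inducible genes held both opposite changes and shared rises. Of 36 tested members, 27 were higher in ILC2s and 13 in CD8 T cells, while 14 were lower in CD8 T cells; 11 rose in ILC2s and fell in CD8 T cells (3.26% of all genes did) and 10 rose in both (14.3%). Ero1l, an oxidase for disulfide formation in the endoplasmic reticulum, went from 1050 and 1085 to 12863 and 11137 CPM in ILC2s and from 1454 and 1576 to 1137 and 1100 CPM in CD8 T cells. All 4 co-culture values lay outside the range of the same cells alone, which the choice by size of change favours. The interaction was 4.06 (3.75 to 4.36, edgeR adjusted p 2.7e-12). Ankrd37, a hypoxia-inducible gene, went from 24.2 and 18.4 to 142 and 152 CPM in ILC2s and from 75.2 and 59.3 to 39.7 and 37.9 CPM in CD8 T cells. Pgk1, phosphoglycerate kinase, had changes of 0.69 and -0.56. Hif1a itself, which encodes the oxygen-regulated subunit of the hypoxia factor, rose by 1.51 in CD8 T cells, and its ILC2 change of 0.25 did not pass (edgeR adjusted p 0.078) but passed without the second co-cultured ILC2 library (0.56). The list's ILC2 median was 0.82, or -0.77 under scaling to ILC2 identity genes, where Ero1l at 1.95 and Ankrd37 at 1.24 still rose and Pgk1 at -0.90 fell.

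Cytosolic ribosomal protein genes had a positive interaction in 71 of 81 members tested, beside 20.5% of all genes. In CD8 T cells 76 fell, with a median of -0.74. In ILC2s 36 rose and 16 fell, with a median of 0.16, and 33 rose in ILC2s while falling in CD8 T cells. Over all genes 27.8% fell in CD8 T cells, 29.9% rose and 40.1% fell in ILC2s, and 3.26% rose in ILC2s while falling in CD8 T cells. Rplp1, of the ribosomal stalk, went from 173 and 155 to 88.7 and 80.4 CPM in CD8 T cells and from 160 and 186 to 283 and 394 CPM in ILC2s. Rpl10 and Rpl37a had interactions of 1.35 and 1.55. The family turned over under scaling to ILC2 identity genes, where the list's interaction median went from 0.95 to -0.64. Ribosomal protein genes have many processed pseudogenes, and the treatment of shared reads is not given in the sources used here, so single members are uncertain.

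MHC class I presentation split within the list. The heavy chain gene H2-K1 and the light chain gene B2m rose in ILC2s and fell in CD8 T cells: B2m went from 3451 and 3810 to 4536 and 5102 CPM in ILC2s and from 2312 and 2222 to 1224 and 1386 CPM in CD8 T cells. H2-K1 changed by 1.06 in ILC2s and -0.34 in CD8 T cells. The CD8 change of H2-K1 did not pass without the second co-cultured CD8 library (-0.29). Tapbp, which helps load peptide, and Mr1, a class I-like molecule that presents vitamin B metabolites, rose in both cell types (Tapbp by 0.66 and 0.86, Mr1 by 0.88 and 0.81 in ILC2s and CD8 T cells), as did Tap1 (0.29 and 0.38), whose ILC2 change did not pass without the first ILC2 library labelled alone (0.16). Lnpep, an aminopeptidase of cross-presentation compartments, changed by 0.47 and 0.68, and its ILC2 change did not pass without the first ILC2 library of either label (0.42 and 0.22). Of 31 members tested, 4 rose in ILC2s and fell in CD8 T cells (3.26% of all genes did), 7 rose in both (14.3%) and 7 fell in both (18.4%). Under scaling to ILC2 identity genes 27 of the 31 fell in ILC2s, B2m (-1.13), H2-K1 (-0.54), Tap1 (-1.31), Tapbp (-0.94), Mr1 (-0.72) and Lnpep (-1.13) among them. That was near the share of all genes, of which 13318 of 15540 fell in ILC2s under that scaling. Reads of H2-K1 are shared with other class I genes.

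Genes of the reverse kind, falling in ILC2s and rising in CD8 T cells, showed larger changes. Serpinb9b (chr13:33027414-33040588), an intracellular serpin, had the largest interaction of the 10 leading genes. It went from 180 and 191 to 1.51 and 1.1 CPM in ILC2s and from 16.7 and 19 to 127 and 120 CPM in CD8 T cells. The cell types exchanged places: the higher one in the groups labelled alone was the lower one in co-culture. The log2 changes were -7.09 and 2.72, an interaction of -9.81 (-10.24 to -9.38, edgeR adjusted p 1.2e-14), although reads may be shared with its close paralogs.

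Atp6v0d2 (chr4:19876838-19922566), a subunit of the proton pump that acidifies lysosomes, ranked first by the smaller of both changes. It went from 48 and 48.7 to 1.57 and 1.89 CPM in ILC2s and from 1.35 and 1.79 to 26.7 and 28.8 CPM in CD8 T cells. Filip1 (chr9:79805018-80012851), a filamin-interacting protein gene, went from 27.5 and 21.6 to 4.23 and 3.18 CPM in ILC2s and from 4.84 and 9.13 to 161 and 185 CPM in CD8 T cells. Both genes, chosen for the size of their changes, had interactions of -8.82 and -7.22 and edgeR adjusted p of 7.2e-14 and 3.9e-11. Sdc1 (chr12:8771396-8793716), the proteoglycan syndecan-1, went from 504 and 627 to 22.2 and 23.3 CPM in ILC2s and from 5.22 and 7.2 to 41.9 and 43.6 CPM in CD8 T cells. Filip1 started higher in ILC2s and ended far higher in CD8 T cells, whereas Sdc1 moved from a wide gap to levels of the same order.

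Signalling and enzyme genes completed the 10. Pik3r6, a regulatory subunit of PI3K gamma, and Prkar1b, a regulatory subunit of protein kinase A, had interactions of -6.07 and -6.88. Bst1 (CD157), an NAD-consuming ectoenzyme, went from 24.4 and 23.9 to 0.908 and 1.68 CPM in ILC2s and from 18.3 and 22.3 to 117 and 124 CPM in CD8 T cells. Alone, the cell types had similar Bst1 levels, and co-cultured they lay far apart. Ugt1a7c (a glucuronosyltransferase whose exons overlap those of its family), Dtx4 (a Deltex ubiquitin ligase) and Igfbp4 (an IGF-binding protein) had interactions of -8.09, -6.13 and -5.66. Igfbp4 at a smaller change of 2.21 was the last named, and Itgax, an integrin of myeloid and activated cells, followed at 2.19.

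In 205 of the 341 genes with 2-fold changes of this kind, ILC2s labelled alone had a higher mean than both CD8 groups, a description that the choice of these genes partly sets. Over all genes tested this held for 5299 of 15540. The ILC2-alone level exceeded the highest share of a T cell marker (34.9% of the higher CD8 group, Trbc1) in 283 of the 341, or 83%. That was below the 92.3% of all genes tested. Sdc1, Serpinb9b, Ugt1a7c and Atp6v0d2 were higher in ILC2s labelled alone than in any CD8 library, whereas Filip1, Pik3r6 and Bst1 stayed below the co-cultured CD8 level.

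Of 25 cytotoxic granule genes, 12 fell in ILC2s and rose in CD8 T cells (7.39% of all genes did), 1 rose in both, 1 fell in both and 11 were called in at most 1 cell type, and the list's medians were -2.1 in ILC2s and 0.27 in CD8 T cells. Prf1, perforin, went from 332 and 337 to 29.9 and 29.3 CPM in ILC2s and from 290 and 448 to 929 and 908 CPM in CD8 T cells. Gzma went from 381 and 400 to 112 and 140 CPM in ILC2s and from 134 and 125 to 1189 and 1181 CPM in CD8 T cells. In the groups labelled alone Gzma was higher in ILC2s than in CD8 T cells, and in co-culture the order was reversed. The interactions were -4.69 (Prf1) and -4.71 (Gzma), with edgeR adjusted p of 5.4e-11 and 6e-13. Gzmb went the other way in CD8 T cells, from 10670 and 10854 to 4320 and 4497 CPM, and fell in ILC2s from 3209 and 2858 to 95.2 and 117 CPM. It was the 1 granule gene that fell in both, with an interaction of -3.43. Granzyme genes are close paralogs. The summed T cell and NK cell markers fell in the same ILC2 libraries, and in CD8 T cells the NK cell markers summed to at most 361 CPM alone and at most 606 CPM co-cultured; their part in these changes was not tested.

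Genes of the T cell receptor complex and its signalling, several of them also T cell markers, had medians of -0.59 in ILC2s and 0.21 in CD8 T cells. Cd8a went from 249 and 258 to 6.09 and 6.76 CPM in ILC2s and from 580 and 570 to 966 and 937 CPM in CD8 T cells, and Cd3e from 185 and 202 to 16.2 and 20.3 CPM and from 591 and 660 to 1117 and 1162 CPM. The interactions were -5.91 and -4.16. Prkcq, a protein kinase C downstream of the receptor, changed less, by -0.59 in ILC2s and 0.76 in CD8 T cells. Of 33 members 8 fell in ILC2s and rose in CD8 T cells (7.39% of all genes did). The 6 that rose in both and the 6 that fell in both were shares near those of all genes, 14.3% and 18.4%.

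Quiescence and memory genes fell in ILC2s for 19 of 25 members and rose in CD8 T cells for 14, and 9 did both. Over all genes these shares were 40.1%, 28.2% and 7.39%. The list's medians were -2.06 and 0.51. Il6st, the shared signal chain of IL-6 family receptors, went from 77.4 and 82.6 to 7.12 and 5.51 CPM in ILC2s and from 13.5 and 12.7 to 58.2 and 61.5 CPM in CD8 T cells. Txk, a TEC family kinase, went from 82.1 and 78.2 to 21.8 and 22.8 CPM in ILC2s and from 58.7 and 74.1 to 441 and 408 CPM in CD8 T cells. Tcf7, the factor TCF-1 of naive and memory T cells, changed by -2.21 and 1.06. The interaction was negative for 21 of the 25 members, beside 33% of all genes.

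The gut homing receptor gene Ccr9 gave the largest CD8 rise of the genes named here. It went from 1.86 and 1.21 to 303 and 298 CPM in CD8 T cells and from 44.4 and 43.7 to 11 and 9.4 CPM in ILC2s, an interaction of -9.60 (-10.06 to -9.15, edgeR adjusted p 2.2e-14). Ccr9 belongs to a list of TGF-beta and retinoic acid response genes, of which 20 of 27 rose in CD8 T cells (median 1.01) while 11 rose and 13 fell in ILC2s (median -0.11), and 8 fell in ILC2s while rising in CD8 T cells. Lysosomal enzyme genes rose in CD8 T cells for 20 of 29 (median 0.45), and in ILC2s 9 rose and 14 fell (median -0.21). Inhibitory receptors and ectonucleotidases split: of 19 tested, 9 rose in CD8 T cells and 10 fell in ILC2s. Over all genes 28.2% rose in CD8 T cells, 40.1% fell in ILC2s and 7.39% did both. Entpd1 (CD39) and Cd38, which degrade extracellular nucleotides and NAD, rose by 2.89 and 2.81 in CD8 T cells and fell by 1.28 and 0.65 in ILC2s on the log2 scale. Ctla4, a coinhibitory receptor, rose in both, from 520 and 540 to 814 and 735 CPM in CD8 T cells and from 375 and 389 to 1730 and 1684 CPM in ILC2s.

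Among genes that rose in both cell types, Ccr2 and Tgfb3 had the largest paired changes. Ccr2 (chr9:124101918-124109140), the receptor for CCL2, went from 2.49 and 3.28 to 36.6 and 34.3 CPM in CD8 T cells and from 64.2 and 65.4 to 693 and 579 CPM in ILC2s. Tgfb3 (chr12:86056743-86079041), a TGF-beta ligand, went from 36.1 and 42.2 to 370 and 400 CPM in CD8 T cells and from 102 and 103 to 1053 and 933 CPM in ILC2s. Both were higher in ILC2s in either condition. Under the main scaling the rises were of like size: 3.35 and 3.54 for Ccr2 in ILC2s and CD8 T cells, and 3.34 and 3.23 for Tgfb3. The interactions of -0.19 (95% interval -0.59 to 0.21) and 0.11 (-0.21 to 0.43) give the range of differences these libraries allow under that scaling. Under scaling to ILC2 identity genes the interactions were -1.79 (Ccr2) and -1.49 (Tgfb3).

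Dgat1 (chr15:76502012-76512021), which makes triglycerides, was the most abundant of the 8 leading genes. It went from 79.2 and 94.2 to 549 and 528 CPM in CD8 T cells and from 994 and 1030 to 4572 and 4789 CPM in ILC2s. Appl2 (chr10:83600033-83648877), an endosomal adaptor, had nearly equal levels in both cell types before and after: 51.5 and 67 against 48.1 and 44.1 CPM alone, and 269 and 258 against 256 and 219 CPM co-cultured (CD8 T cells first). Itga4 (chr2:79255426-79333114), the alpha-4 integrin chain, went from 15.7 and 14.2 to 71.8 and 72.7 CPM in CD8 T cells and from 38.1 and 35.1 to 181 and 159 CPM in ILC2s. No alone and co-cultured libraries of a cell type overlapped for these 3 genes, which the choice of genes with large changes favours. The other leading genes that rose in both were Mcam (CD146, an adhesion molecule), Bmp7 (a TGF-beta family ligand) and Gprasp1 (a receptor sorting protein), with ILC2 changes of 2.11 to 2.62 and CD8 changes of 2.13 to 3.59. Under the main scaling Mcam alone of the 8 had a called interaction (-1.14, edgeR adjusted p 4.9e-04). That of Dgat1 (-0.30) passed without the second CD8 library labelled alone (-0.45), and that of Appl2 (0.34) without the first of these (0.53) or the second co-cultured ILC2 library (0.54). All 8 kept a positive ILC2 change, 0.51 to 1.75, under scaling to ILC2 identity genes. The interactions were then called for all 8, from -1.26 (Appl2) to -2.74 (Mcam). Appl2, at a smaller change of 2.08, was the last named, and Aplp1 followed at 2.00.

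**Figure D4:**
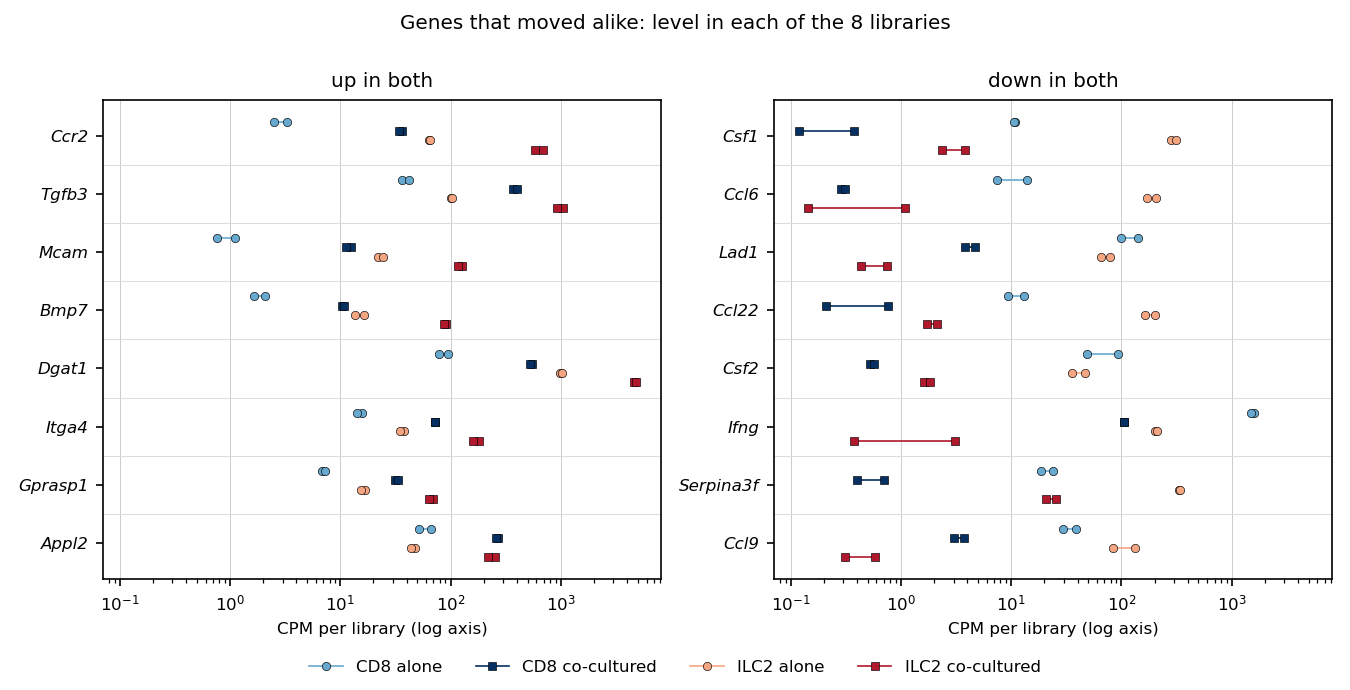
Level of the 8 leading genes that rose in both cell types (left) and fell in both (right) in CPM (log axis), with 1 point per library and lines joining the 2 libraries of a group. In both panels the squares (co-cultured) lie to the same side of the circles (alone) in either cell type, while the levels of the cell types differ.

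Integrins, STAT pathway genes and costimulatory receptors also held shared rises, beside 14.3% of all genes. Of 17 integrins 7 rose in both, including the beta-7 chain gene Itgb7, which went from 375 and 385 to 1271 and 1240 CPM in CD8 T cells and from 1469 and 1530 to 3675 and 3698 CPM in ILC2s. Itga7, a laminin receptor chain, rose by 3.65 in ILC2s and 0.72 in CD8 T cells, and 5 integrins fell in ILC2s while rising in CD8 T cells. Of 23 STAT and SOCS genes 8 rose in both. Jak3, the kinase of the common gamma chain, went from 240 and 285 to 692 and 722 CPM in CD8 T cells and from 272 and 251 to 1294 and 1212 CPM in ILC2s. Stat3 rose by 1.34 in ILC2s and 1.38 in CD8 T cells, an interaction of -0.05 (-0.35 to 0.26), or -1.64 under scaling to ILC2 identity genes. The other JAK family genes, Jak1 (0.52 in ILC2s and 1.33 in CD8 T cells), Jak2 (0.39 and 1.35) and Tyk2 (0.56 and 0.72), also rose in both. Prdm1, the repressor BLIMP-1, went from 5.96 and 6.06 to 13.9 and 13.9 CPM in CD8 T cells and from 41.1 and 39.2 to 315 and 269 CPM in ILC2s.

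Of 20 costimulatory receptors 6 rose in both. Tnfrsf25 (DR3) rose by 1.54 in ILC2s and 1.39 in CD8 T cells, and Tnfrsf1b (TNFR2) by 0.55 and 1.51. Il2ra (CD25) rose by 0.61 in ILC2s and changed by -0.30 in CD8 T cells, a change that did not pass without the second CD8 library labelled alone or either co-cultured CD8 library (-0.26 to -0.32). Under scaling to ILC2 identity genes Itgb7 (-0.24), Stat3 (-0.26), Tnfrsf25 (-0.06), Tnfrsf1b (-1.05), Kit (-0.49) and Il2ra (-0.99) fell in ILC2s or lost their rise, and Itga4, Itga7, Jak3, Prdm1 and Ctla4 stayed positive there (0.62 to 2.06).

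Cytokine and chemokine genes led those that fell in both cell types. Csf2 (chr11:54247270-54249899), GM-CSF, went from 92.6 and 49.2 to 0.529 and 0.567 CPM in CD8 T cells and from 46.4 and 35.7 to 1.61 and 1.83 CPM in ILC2s. Ifng (chr10:118441046-118445894), interferon gamma, went from 1591 and 1513 to 106 and 106 CPM in CD8 T cells and from 203 and 210 to 0.371 and 3.12 CPM in ILC2s. The alone and co-cultured libraries did not overlap, which the choice of genes with large changes favours. The 2 co-cultured ILC2 libraries, with 18 and 150 Ifng reads, differed widely. Csf2 fell further in CD8 T cells (-7.08) than in ILC2s (-4.52), an interaction of 2.55 (1.68 to 3.43), and Ifng fell further in ILC2s (-6.84 against -3.94), an interaction of -2.90 (-3.86 to -1.94). The interaction of Csf2 was 0.96 and no longer called under scaling to ILC2 identity genes.

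Csf1 (chr3:107741048-107760469), the macrophage growth factor M-CSF, went from 10.8 and 10.7 to 0.378 and 0.119 CPM in CD8 T cells and from 282 and 313 to 2.35 and 3.81 CPM in ILC2s. Ccl22, a ligand of CCR4, went from 13.1 and 9.32 to 0.771 and 0.209 CPM in CD8 T cells and from 163 and 201 to 1.73 and 2.12 CPM in ILC2s. Both genes were higher in ILC2s than in CD8 T cells in either condition. The interaction of Ccl22 of -1.93 did not pass without the first co-cultured CD8 library (-0.71). The chemokine genes Ccl6 and Ccl9, the protease inhibitor gene Serpina3f (one of a cluster of near copies) and Lad1, an anchoring filament gene, were the other leading genes, with ILC2 changes of -3.82 to -8.21 and CD8 changes of -3.41 to -5.35. Ccl9 at a smaller change of 3.41 was the last named, followed by Aldh1l2 at 3.12. Summed macrophage markers fell beside these genes in ILC2s and, from 151 to 167 to 92.7 CPM, in CD8 T cells.

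The lists gave the wider picture of shared falls. Over all genes tested 18.4% fell in both and 14.3% rose in both. The shares that moved oppositely were 7.39% (falling in ILC2s) and 3.26% (rising in ILC2s). Of 25 type 1 cytokines and TNF family ligands 9 fell in both and 6 fell in ILC2s while rising in CD8 T cells. Tnf was among the 9 (-1.92 in ILC2s and -1.80 in CD8 T cells). Its interaction was -0.12 (interval -0.50 to 0.26), or -1.71 under scaling to ILC2 identity genes. Lta, lymphotoxin alpha, moved oppositely, by 0.94 in ILC2s and -4.65 in CD8 T cells. Of 29 chemokines and chemokine receptors 9 fell in both and 6 rose in both, with medians of -1.87 in ILC2s and 0.04 in CD8 T cells. Of 19 costimulatory and coinhibitory ligands 6 fell in both, among them Pdcd1lg2 (PD-L2; -2.34 and -1.10) and Cd48 (-0.34 and -0.46), the latter not passing in ILC2s without the second co-cultured ILC2 library (-0.20). Vsir, the inhibitory ligand VISTA, was the 1 member that rose in both (0.85 and 1.85), or -0.74 in ILC2s under scaling to ILC2 identity genes. Of 20 MHC class II genes 6 fell in both, including H2-Eb1 (-0.90 in ILC2s and -3.00 in CD8 T cells) and the thiol reductase gene Ifi30 (-1.86 and -0.89). Beside them, B cell markers in CD8 T cells (5 of 10 in the table) summed to 252 to 259 CPM alone and 176 to 180 CPM co-cultured. Dendritic cell markers summed to 1089 to 1118 and 555 to 621 CPM in ILC2s and to 3011 to 3344 and 4948 to 5264 CPM in CD8 T cells. In CD8 T cells 3 of the 7 members tested rose and 2 fell. The list holds Itgax, which is not particular to dendritic cells, so its sum is no measure of their number. The part of B cells and dendritic cells was not tested. Of 28 NR4A, EGR and AP-1 genes, which respond early to receptor signals, 9 fell in both. Egr2 among them went from 126 and 140 to 4.02 and 3.39 CPM in ILC2s and from 105 and 134 to 85.7 and 78.3 CPM in CD8 T cells. Of 16 BCL2 family genes 6 fell in both, including Bid (-3.05 and -0.96), the near copies Bcl2a1b and Bcl2a1d, and 3 rose in ILC2s while falling in CD8 T cells.

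Genes of the amino acid and unfolded protein response fell in both cell types for 21 of 41 members, beside 18.4% of all genes. When amino acids are short or unfolded protein accumulates, the factor ATF4 raises genes of amino acid uptake and synthesis. Asns, asparagine synthetase, went from 693 and 629 to 58.7 and 62.8 CPM in CD8 T cells and from 118 and 131 to 32.5 and 32.6 CPM in ILC2s, an interaction of 1.63 (1.34 to 1.93). Phgdh, the first enzyme of serine synthesis, fell by 2.11 in CD8 T cells and by 1.96 in ILC2s on the log2 scale, with an interaction of 0.14 (-0.15 to 0.43). Cth, which makes cysteine, went from 304 and 275 to 40.9 and 37.9 CPM in CD8 T cells and from 31.8 and 35.4 to 1.79 and 2.52 CPM in ILC2s. The gene for the factor fell like these genes in CD8 T cells, where Atf4 went from 389 and 328 to 128 and 121 CPM. In ILC2s Atf4 rose under the main scaling, from 204 and 201 to 336 and 351 CPM, an interaction of 2.41. Its partner gene Ddit3 (CHOP) rose by 1.56 in ILC2s and changed by -0.51 in CD8 T cells. Both ILC2 rises are those of the main scaling. The list's ILC2 median was -2.06 under scaling to ILC2 identity genes. Over the list 32 fell in CD8 T cells (median -1.02) and 24 in ILC2s (median -0.46), and the interaction was positive for 23. The shares of all genes were 27.8%, 40.1% and 20.5%. Under scaling to ILC2 identity genes 38 of the 41 fell in ILC2s, beside 13318 of all 15540 genes. The interaction of Asns was then 0.04 and not called, and that of Phgdh was -1.45.

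Of the 21 members that fell in both, 17 had a promoter in the RefSeq table of GRCm38.p6 (250 bases before to 50 after the gene start), and 6 of these held the letters TGATGNAA on either strand, the composite element of ATF4 with C/EBP factors. The letters stood in 4.06% of all 27025 promoters, in 2.38% of the 10855 of genes tested, and in 4.56% of those of genes that fell at least 2-fold in both. ATF4 is known to raise genes of the kind listed, so the choice of the list favours matches, whatever the direction of change. The stretches around the match, in capitals, are shown for 5 of these members because they fell together; they run 5′ to 3′ on the gene's strand, and a match is not a measured binding site.
Slc7a11, chr3:50443646-50443705: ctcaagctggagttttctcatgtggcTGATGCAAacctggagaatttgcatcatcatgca
Chac1, chr2:119351023-119351082: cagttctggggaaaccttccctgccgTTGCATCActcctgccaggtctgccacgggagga
Asns, chr6:7693210-7693258: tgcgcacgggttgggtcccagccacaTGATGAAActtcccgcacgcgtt
Pycr1, chr11:120643818-120643877: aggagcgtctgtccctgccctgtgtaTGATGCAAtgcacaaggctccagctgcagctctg
Atf3, chr1:191183410-191183469: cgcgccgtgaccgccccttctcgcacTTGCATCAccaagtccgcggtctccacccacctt
Slc7a11, the cystine transporter, held a second match further downstream. It went from 24.8 and 30.5 to 0.371 and 0.853 CPM in ILC2s and from 5.98 and 4.43 to 0.514 and 0.268 CPM in CD8 T cells. Chac1, which breaks down glutathione, went from 28 and 26.9 to 1.41 and 2 CPM in CD8 T cells and from 6.64 and 7.06 to 1.61 and 1.27 CPM in ILC2s. Pycr1, of proline synthesis, fell by 2.03 in ILC2s and by 1.80 in CD8 T cells on the log2 scale, and Atf3, a stress-induced factor, by 1.74 and 2.65.

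Growth and protein turnover genes fell in both almost as blocks, against a background of 18.4% of all genes. Of 32 proteasome genes 30 fell in both, of 36 MYC and ribosome biogenesis genes 31, of 78 mitochondrial ribosomal protein genes 67, of 53 respiratory chain and ATP synthase genes 43, of 40 DNA replication genes 31 and of 20 aminoacyl-tRNA synthetase genes 15. Under the main scaling the falls were of similar size in both cell types for mitochondrial ribosomal proteins (medians -1.01 in ILC2s and -0.82 in CD8 T cells) and the respiratory chain (-0.92 and -0.82). They were larger in ILC2s for ribosome biogenesis (-2.0 and -0.98), DNA replication (-1.7 and -0.59) and the proteasome (-1.42 and -0.93). Interactions passed for 34 of the 78 mitochondrial ribosomal genes, 21 of the 53 respiratory chain genes, 28 of the 36 ribosome biogenesis genes and 34 of the 40 replication genes. Over all genes tested they passed for 53.5%, so the first 2 lists lay below that share. Under scaling to ILC2 identity genes the ILC2 medians were -2.61 for mitochondrial ribosomal proteins and -2.51 for the respiratory chain. The interaction was then called lower for all 78 and all 53 of these genes, beside 12703 of all 15540 genes.

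Single members show the levels. Srm, spermidine synthase, went from 222 and 170 to 54.1 and 57.5 CPM in CD8 T cells and from 159 and 162 to 12.7 and 15.9 CPM in ILC2s. Tyms, thymidylate synthase, went from 94.9 and 68.2 to 22.7 and 22.9 CPM in CD8 T cells and from 89.3 and 85.7 to 7.8 and 8.74 CPM in ILC2s. Ndufa4, of the respiratory chain, went from 81.7 and 76.5 to 16.4 and 15.3 CPM in CD8 T cells and from 21.9 and 26.9 to 4.85 and 6.07 CPM in ILC2s. The first 2 had started at similar levels in both cell types and ended lower in ILC2s. Under the main scaling Ndufa4 fell by like amounts (interaction 0.28, interval -0.12 to 0.68). Its interaction was -1.31 under scaling to ILC2 identity genes. Myc itself did not pass in CD8 T cells (608 and 736 alone, 789 and 834 CPM co-cultured, edgeR adjusted p 0.11) and fell in ILC2s from 368 and 356 to 94.1 and 90.1 CPM. The CD8 change of Myc, 0.20, passed without the second CD8 library labelled alone (0.36) or the second co-cultured ILC2 library (0.26).

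Mitosis genes differed from replication genes in CD8 T cells. Of 40, 36 fell in ILC2s (median -1.05), while in CD8 T cells 13 fell and 10 rose (median -0.0037), and 9 fell in ILC2s while rising in CD8 T cells. Over all genes these shares were 40.1%, 27.8%, 28.2% and 7.39%. Cdk1, the mitotic kinase, fell in both, from 246 and 214 to 130 and 133 CPM in CD8 T cells and from 133 and 140 to 31.4 and 37.2 CPM in ILC2s.

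Interferon-stimulated genes fell in ILC2s for 41 of 45 (median -1.31), and in CD8 T cells 15 rose and 18 fell (median -0.04). Over all genes 40.1% fell in ILC2s, 28.2% rose and 27.8% fell in CD8 T cells, and 18.4% fell in both. Iigp1, an immunity-related GTPase, went from 1861 and 1852 to 133 and 121 CPM in ILC2s and from 69.2 and 56.4 to 27.7 and 26.6 CPM in CD8 T cells, and Ifitm3 fell by 2.81 and 2.95 on the log2 scale. Of 24 NRF2 oxidative stress genes 13 fell in both, with medians of -1.5 in ILC2s and -0.35 in CD8 T cells. Prdx1, a peroxiredoxin, went from 1329 and 1721 to 56.3 and 75.1 CPM in ILC2s and from 592 and 492 to 163 and 169 CPM in CD8 T cells. Of 25 cholesterol synthesis genes 11 fell in both, with medians of -0.6 and -0.68, and the isomerase gene Idi1 fell by 2.22 in ILC2s and by 1.04 in CD8 T cells. Among 18 genes known to respond to cell handling, 14 were lower in ILC2s (median -1.33), and 5 rose and 6 fell in CD8 T cells (median -0.16).

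**Figure D5:**
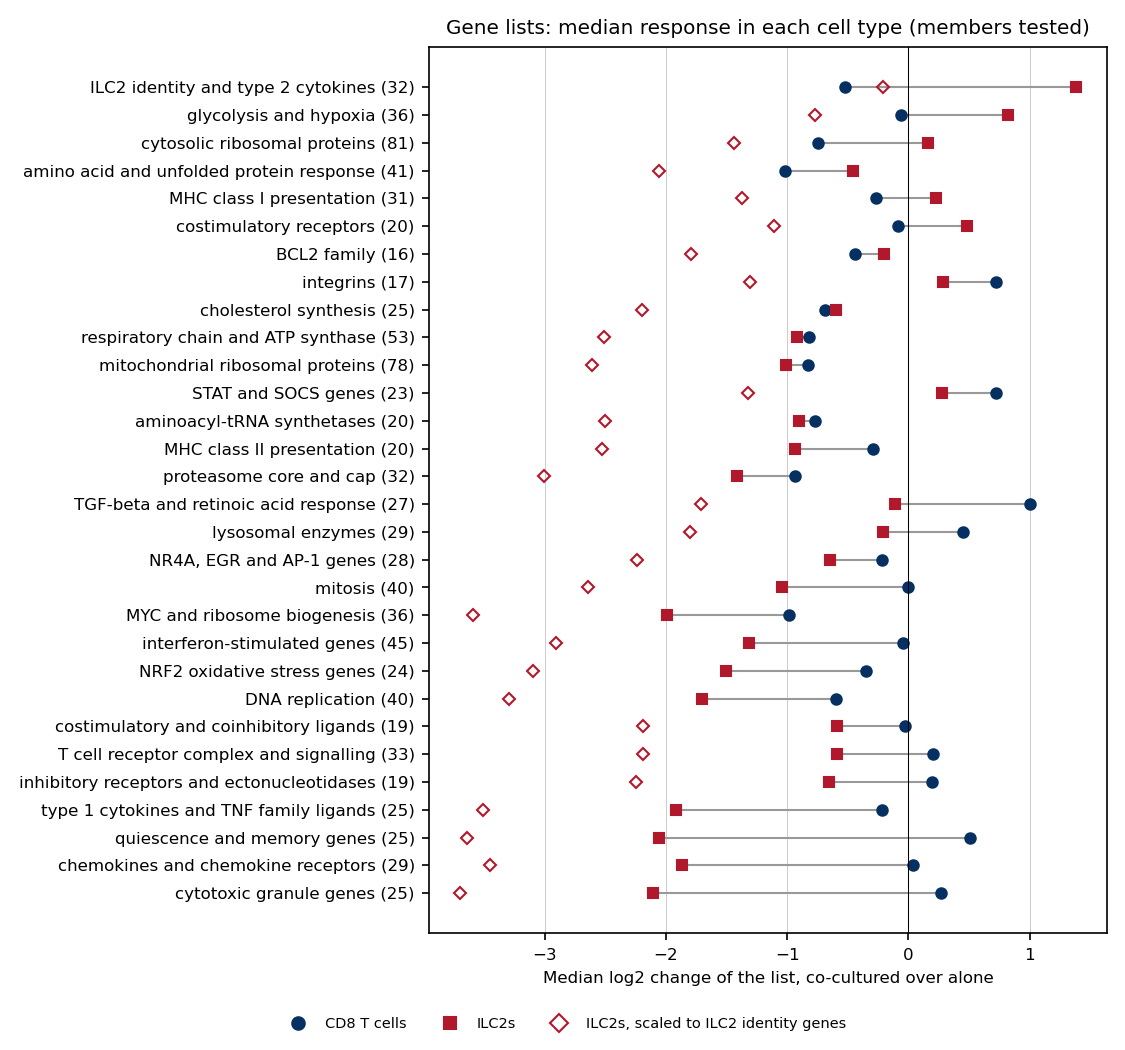
Median log2 change, co-cultured over alone, of 30 gene lists in CD8 T cells (filled circles) and ILC2s (filled squares), with the number of members tested in brackets; open diamonds give the ILC2 median when ILC2 libraries are scaled to ILC2 identity genes. Lists are ordered by the median interaction, from ILC2 identity genes (1.43) at the top to cytotoxic granule genes (-2.46) at the bottom, and every diamond lies left of 0.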

How the data were processed

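The authors deposited 1 table of read counts per gene symbol for each cell type. Per the submitters' processing notes, the mm10 build was used with StringTie 2.1.3b, SAMtools 1.9, HISAT2 2.1.0 and Trimmomatic 0.38. How reads were counted, with which annotation and strand setting, is not given in the sources used here, so genes that overlap or share reads with near copies are uncertain. Both tables (17642 symbols for CD8 T cells and 18389 for ILC2s) were joined on the 16226 shared symbols. edgeR 4.0.16 in R 4.3.3 was run with its expression filter, TMM scaling and quasi-likelihood tests of both responses and the interaction over 8 libraries in 4 groups, and p-values were adjusted by Benjamini-Hochberg over 15540 genes (threshold 0.05). The test was tried on simulated data. CPM values, for display, are counts divided by the library total, without TMM factors. DESeq2 1.42.0, limma 3.58.1 (voom), other scalings and filters, a replicate block and leaving out each library were the alternatives.

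The members, the 42 gene lists and the rules were chosen with earlier results of these data known, so lists are described by counts and medians with no test. Named genes were, among genes changed at least 2-fold in both cell types and at 10 CPM or more in each, the 10 of each opposite kind and the 8 of each shared kind with the largest smaller change, up to 4 members of the fullest class of each process list, and a fixed set (among them Ifng, Gata3, Kit, Ccr9 and Myc). Pparg, Il10, Rora, Lta, Atf4, Ddit3, Slc7a11, Chac1, Pycr1, Atf3, Jak1, Jak2, Tyk2, Entpd1, Cd38 and Tcf7 were chosen after their values were seen. Some genes that the rule names are not reported here. Gene positions and promoters came from RefSeq tables for GRCm38.p6.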

Additional observations from a re-analysis of the deposited data

Results flagged for a closer look

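The interaction passed its test, with both responses called in opposite directions, for 39 of the genes chosen by the naming rule, listed here with their interactions on the log2 scale. Among genes that rose in ILC2s and fell in CD8 T cells, type 2 and receptor genes had interactions of 6.22 (Il5), 3.64 (Ccr4), 3.87 (Ramp3), 3.66 (Ramp1), 2.28 (Gata3), 3.02 (Il1rl1) and 0.91 (Il2ra). The other leading genes had 4.73 (Ciart), 2.95 (Prxl2a), 7.63 (Alox5), 3.75 (Ccdc184), 2.70 (Cdk6) and 2.27 (H1f0). Hypoxia, ribosomal and class I genes had 3.70 (Ankrd37), 1.26 (Pgk1), 4.06 (Ero1l), 2.04 (Rplp1), 1.55 (Rpl37a), 1.35 (Rpl10), 1.33 (B2m) and 1.39 (H2-K1).

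Among genes that fell in ILC2s and rose in CD8 T cells, the leading ones had interactions of -8.82 (Atp6v0d2), -6.88 (Prkar1b), -8.09 (Ugt1a7c), -6.07 (Pik3r6), -9.81 (Serpinb9b), -7.29 (Sdc1), -7.22 (Filip1), -6.67 (Bst1), -6.13 (Dtx4) and -5.66 (Igfbp4). Lymphocyte genes had -4.71 (Gzma), -4.69 (Prf1), -4.16 (Cd3e), -5.91 (Cd8a), -1.35 (Prkcq), -5.73 (Il6st), -4.40 (Txk) and -9.60 (Ccr9).

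Symbols present in only 1 table could not enter the interaction. Of those only in the ILC2 table and at 10 CPM or more, 36 were at least 2-fold higher in ILC2s labelled co-cultured than in those labelled alone.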

How the results depend on the processing

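The report's directions and counts were recomputed with other tools, scalings, filters and libraries left out. Scaling to ILC2 identity genes moved the counts most: interaction higher 247 and lower 12703, ILC2 higher 297 and lower 13318, rising in ILC2s and falling in CD8 T cells 25 (2-fold 3), the reverse 3730 (2-fold 781), rising in both 171 (2-fold 40) and falling in both at least 2-fold 1382. A filter of 10 CPM in 2 libraries tested fewer genes and gave 2-fold counts of 44, 192 and 290 for the first 3 classes. Leaving out 1 library gave CD8 higher 3328 to 5044 and lower 3350 to 4562, ILC2 higher 4059 to 4976 and lower 5404 to 6183, and interaction higher 2611 to 3368 and lower 4472 to 5291. The classes ran from 343 to 528 (2-fold 57 to 101), 845 to 1245 (296 to 353), 1779 to 2764 (359 to 566) and 2358 to 2852 (748 to 957).

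With the replicate block the interaction was higher for 3152 and lower for 5077 genes, with classes of 496, 1136, 2196 and 2846. The labels do not say that numbers pair the libraries. For each group the difference between its libraries, taken in the order of their numbers, was computed per gene. Across genes these differences had correlations of -0.11 to 0.05 between groups. These are not correlations of the expression levels of libraries.

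All 40 reversals among the values of the 121 genes named by rule came from scaling to ILC2 identity genes. Genes chosen after their values were seen were not in this count. ILC2 responses became -0.087 (Ciart), -0.20 (Prxl2a), -0.21 (Alox5), -0.29 (Ccdc184), -0.34 (Cdk6), -0.50 (H1f0), -0.72 (Mr1), -0.94 (Tapbp), -1.13 (Lnpep), -0.055 (Tnfrsf25), -1.05 (Tnfrsf1b), -0.15 (Tnfrsf9), -0.74 (Vsir), -0.41 (Tox), -0.90 (Pgk1), -0.26 (Stat3), -0.24 (Itgb7), -0.67 (Npc1), -0.57 (Rplp1), -0.75 (Rpl37a), -0.89 (Rpl10), -0.047 (Il1rl1), -1.13 (B2m), -0.54 (H2-K1), -1.31 (Tap1), -0.99 (Il2ra) and -0.49 (Kit). Interactions became -0.068 (Serpina3f), -0.46 (Tnfrsf9), -0.93 (Tox), -0.91 (Ccne2), -0.90 (Nars), -0.33 (Pgk1), -0.89 (Dusp6), -0.64 (Jak3), -0.040 (Rpl37a), -0.24 (Rpl10), -0.27 (B2m), -0.20 (H2-K1) and -0.69 (Il2ra). Groups of 2 libraries limit every interval.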

Other observations

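Genes in only 1 table add to both cell types' accounts, as values with no test. Among the 8 symbols found only in the CD8 table at 10 CPM or more, Il3, a growth factor of mast cells and basophils, went from 55.3 and 56.0 CPM alone to 1.93 and 2.09 CPM co-cultured, and 6 of the 8 were at least 2-fold higher alone. In the ILC2 table there were 303 such symbols, of which 231 were at least 2-fold higher alone. Sparc, a matrix protein of stromal cells, went from 2139 and 2317 CPM to 1.24 and 0.25 CPM. Klrg1, a receptor of mature ILC2s, went from 92.9 and 107 to 246 and 273 CPM, and Tph1, tryptophan hydroxylase, from 75 and 66.7 to 133 and 143 CPM. Sema6d, a semaphorin, went from 15.4 and 13.7 to 60.9 and 51.2 CPM. These 4 were chosen after their values were seen.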
